A study of Mus musculus with 8 samples.

Results

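The DNA replication genes examined here were 47 genes for the proteins that copy chromosomal DNA, and they were taken by symbol from the study's mRNA table, which lists 22272 symbols. A count above 0 was found for 46 of them in at least 1 library. Tk1, the thymidine kinase of the nucleotide salvage route, was listed at 0 in all 4 libraries. The RNA came from bone marrow of wild-type female C57BL/6 mice aged 8 to 10 weeks, with no treatment and no transgene. Live cells, negative for the dye 7-AAD, were sorted by B220, IgM and CD43. The gate for pro-B cells took IgM-negative, CD43-positive cells, and that for pre-B cells took cells negative for both markers. Immature B cells were IgM-positive and CD43-negative, and mature B cells were the same with high B220. Each stage gave 1 RNA library, depleted of rRNA and made from a pool of 3 mice. With 1 library per stage no difference has a replicate check, no p-value is given, and every interval below is a 95% interval for counting error alone.

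Replication is prepared in G1, when the origin recognition complex, Cdc6 and Cdt1 load the Mcm2-7 helicase onto origins, a step called licensing. The kinase Cdc7, Mcm10, Cdc45 and the GINS complex then turn the loaded helicase into a moving one. Primase and DNA polymerase alpha lay down primers, polymerases delta and epsilon extend them on the sliding clamp Pcna, and the single-stranded template is covered by the Rpa trimer. Many of these genes are targets of E2F transcription factors, which are held back by pocket proteins in resting cells. In the marrow, pro-B cells and large pre-B cells divide, whereas small pre-B cells and the IgM-positive stages are mostly at rest. The pre-B gate used here does not separate large from small pre-B cells.

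E2F binding letters are shown for 6 of the genes, so that promoters and levels can be set side by side. Of these, 4 were counted as lower in mature than in pro-B cells and 2 were not. RefSeq promoter windows on GRCm38.p6, from 250 bases before to 50 bases after the gene start, were found for 39 of the 47 genes. The windows were searched on both strands for the 4 words TTTCCCGC, TTTCGCGC, TTTGCCGC and TTTGGCGC, of which TTTGGCGC and TTTCGCGC can overlap each other on opposite strands. At least 1 word was present in 14 of the 39 (35.9%), against 704 of the 27025 genes with a window (2.61%). CCAAT was present in 24 of the 39 (61.5%) against 41.1% of all genes, and TTTGAA, the letters of the cell cycle homology region, in 6 of the 39 (15.4%) against 20.2%. The 14 genes were Cdc6, Cdt1, Gins3, Lig1, Mcm3, Mcm5, Mcm6, Mcm7, Orc1, Orc3, Pola1, Pold1, Pole2 and Rfc3. In each stretch below, capitals mark 1 E2F word or its reverse complement. Mcm5 also holds TTTGGCGC on the other strand, which overlaps the marked word and runs into the lower case letters. The stretches are upstream of the gene start and read 5′ to 3′ on the strand of the gene. They lie at chr11:98908002-98908031 (plus strand) for Cdc6, chr8:75109345-75109374 (plus) for Mcm5, chr1:128359734-128359763 (minus) for Mcm6, chrX:93632275-93632304 (minus) for Pola1, chr4:108579416-108579445 (plus) for Orc1 and chr4:34614965-34614994 (minus) for Orc3.
Cdc6: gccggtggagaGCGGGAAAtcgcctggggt
Mcm5: gcgccaagaacTTTCGCGCcaaaacgtcca
Mcm6: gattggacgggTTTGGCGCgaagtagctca
Pola1: gtcatcacaggGCGCCAAAtgcactcccgc
Orc1: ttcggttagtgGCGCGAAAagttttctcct
Orc3: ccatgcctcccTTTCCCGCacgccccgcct

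The mRNA counts, estimated per gene by StringTie, were deepest for pro-B (867920) and mature B cells (849350) and shallower for pre-B (240231) and immature B cells (223495). Levels are given as CPM, the count per 1000000 of this column total, so 1 count was worth 1.15, 4.16, 4.47 and 1.18 CPM from pro-B to mature B cells. Where 4 values follow a gene without further label, they stand in this order of stages. The mRNA table held 23.9%, 6.50%, 6.50% and 23.7% of the counts of the mRNA and lncRNA tables together, which summed to between 3438016 and 3696673. Pro-B and mature B libraries were thus alike in depth and in mRNA share, and so were pre-B and immature B libraries. A comparison of a library of the first pair with one of the other moves with the choice of total. Sums and counts of the replication genes are given on both, and many single genes on the mRNA total alone. Of the 47 genes, 46, 42, 32 and 41 were above 0 from pro-B to mature B cells, and 42, 21, 15 and 32 reached 10 counts. Stage markers mostly followed the labels. The 6 pro-B genes, Dntt and Igll1 among them, were at 2321 CPM together at the pro-B stage and at 179, 44.7 and 56.5 CPM later. Fcer2a was above 0 in mature B cells alone. The 4 markers of pre-B cells, Vpreb3 and Rag1 among them, were at 1066 CPM together at that stage, below their 1278 CPM at the pro-B stage. The counting interval of a 0 reached 8.50, 30.7, 33.0 and 8.69 CPM in the same order.

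Replication genes were expressed most in pro-B cells on either total. The 46 genes without Gins2 had 3156, 560.1, 388 and 1531 counts from pro-B to mature B cells. Their summed level was 3636 CPM (interval 3459 to 3820) at the pro-B stage, 2332 (2066 to 2621) at the pre-B stage, 1734 (1498 to 1996) at the immature stage and 1802 (1677 to 1934) at the mature stage. The level in pro-B cells stood above the intervals of the other libraries, and those of immature and mature B cells overlapped. Scaled to both tables, the same sum was 869.8, 152, 113 and 428 per 1000000, which puts mature B cells above pre-B cells. Gins2 alone had 104.42, 364.72, 0 and 12.81 counts. With Gins2 included the sum was 3757, 3850, 1734 and 1817 CPM, so that on the mRNA total a single gene closed the gap between pro-B and pre-B cells. The gap stayed on the total of both tables, at 898.6 against 250.2 per 1000000 with Gins2 included. In these sorted but mixed populations, fewer cells in S phase and less RNA per cell cannot be told apart.

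**Figure D1:**
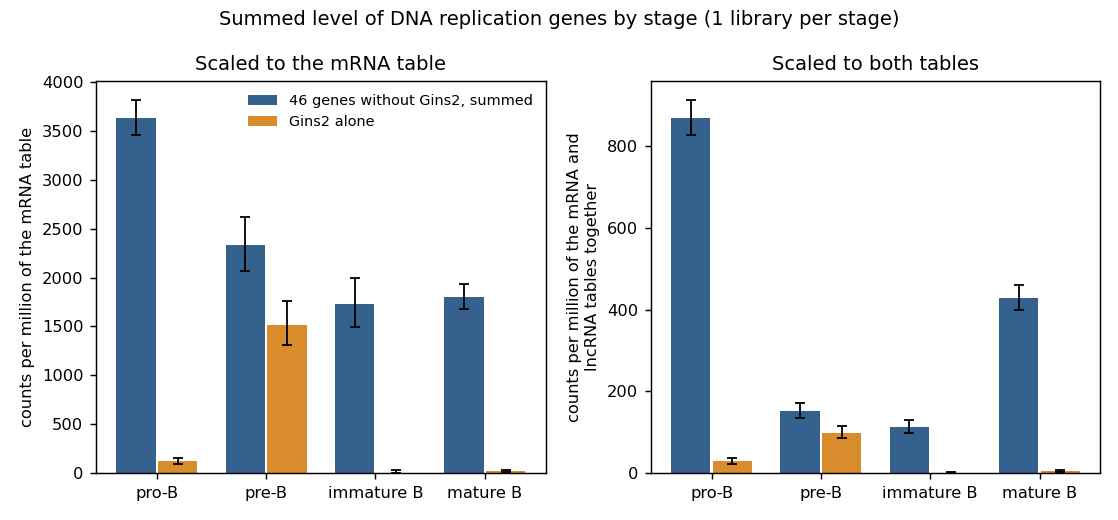
Summed level of the 46 genes without Gins2 (blue) and level of Gins2 alone (orange) in the 4 libraries, as CPM of the mRNA table (left) and of the mRNA and lncRNA tables together (right), with 95% counting intervals as black bars. Pro-B cells have the highest blue bar in both panels, while mature B cells are near immature B cells on the left and well above them on the right.

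Pro-B cells also had the highest level for most single genes. The highest CPM was at the pro-B stage for 28 of the 46 genes with counts, at the pre-B stage for 7, at the immature stage for 6 and at the mature stage for 5. Scaled to both tables, pro-B cells were highest for 37, pre-B cells for 2 (Gins2 and Rpa3), immature B cells for 1 (Tyms) and mature B cells for 6. On that total 80.7% of 9707 symbols dropped at least 2-fold from the pro-B to the pre-B library. From the immature to the mature library 75.9% of 8988 symbols rose at least 2-fold. Low values in the pre-B and immature B libraries on that total are thus not particular to replication genes. The stage with the highest level was not counted over all symbols on either total. Mcm6, a subunit of the helicase, had the most counts of the set in pro-B cells, with 406 there and 53, 16 and 92 in the later stages. Rrm1, the large subunit of ribonucleotide reductase, followed with 270, 28, 10 and 94. The next were Mcm2 with 217 counts in pro-B cells, Pcna with 206, Pold1, the catalytic subunit of polymerase delta, with 174, and Mcm4 with 154. These 6 genes held 43.8% of the replication gene counts of pro-B cells. In mature B cells the first 6 were instead Rfc1, Pold1, Cdt1, Pcna, Rpa1 and Rrm1, with 45.9% of the counts.

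**Figure D2:**
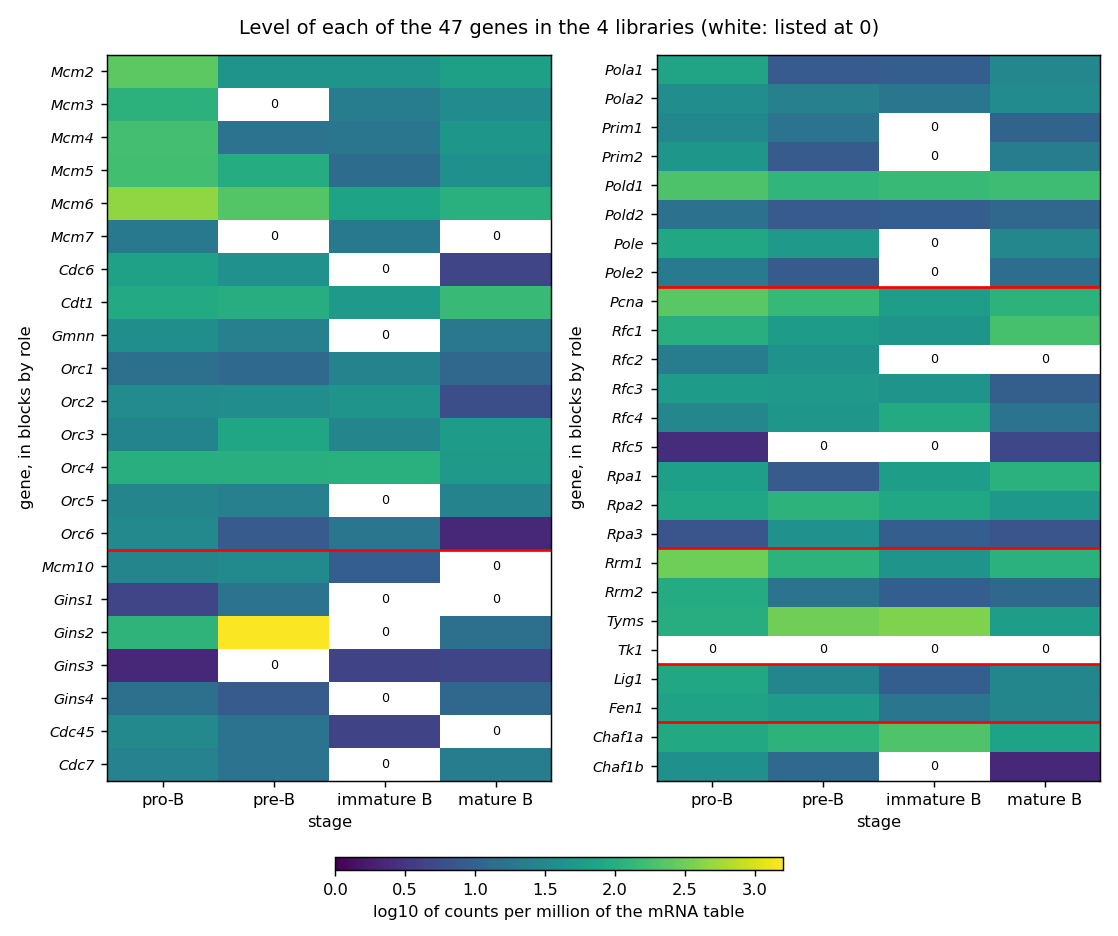
Level of each of the 47 genes (rows, in blocks by role divided by red lines) in the 4 libraries (columns), as log10 of CPM of the mRNA table. White cells with a 0 are listed at 0 and are most frequent in immature B cells (15 genes), and the brightest cell is Gins2 in pre-B cells.

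Mature B cells and pro-B cells, the ends of the series, could be compared at nearly equal depth. A gene was counted as higher or lower where its CPM differed at least 2-fold, with 0 set to 3 counts, and where both libraries together held 10 counts or more. Of 43 genes with enough counts, 25 were lower in mature B cells, where 23.6% of all 10313 symbols tested were lower, and 1 was higher, where 13.3% of all symbols were higher. The median log2 ratio was -1.29 over these 43 genes and -0.18 over all symbols. Without Gins2 the sum was 2.02-fold lower (1.85 to 2.203), and 24 of 42 genes were lower. The other 4 genes, Gins1, Gins3, Rfc5 and Tk1, had too few counts. Markers of T and NK cells moved with this difference: 5 of the 6 listed were above 0 in pro-B cells, with 178 counts together and Cd3e at 0, against 5 counts in mature B cells and 0 in pre-B and immature B cells. Summed markers of granulocytes and monocytes stayed between 1001 and 1553 CPM over the 4 libraries, with Csf1r at 0 in all. Markers of other cells were also lower at the mature than at the pro-B stage: those of plasmacytoid dendritic cells at 723 against 1483 CPM (all 4 above 0 in pro-B cells, Siglech at 0 in mature B cells), those of plasma cells at 111 against 316 CPM (4 of 4 above 0 in both) and those of erythroid cells at 229 against 419 CPM (7 of 8 above 0 in both). The part of these cells in the result was not tested. The 6 B-lineage genes ranged from 4283 to 5776 CPM.

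**Figure D3:**
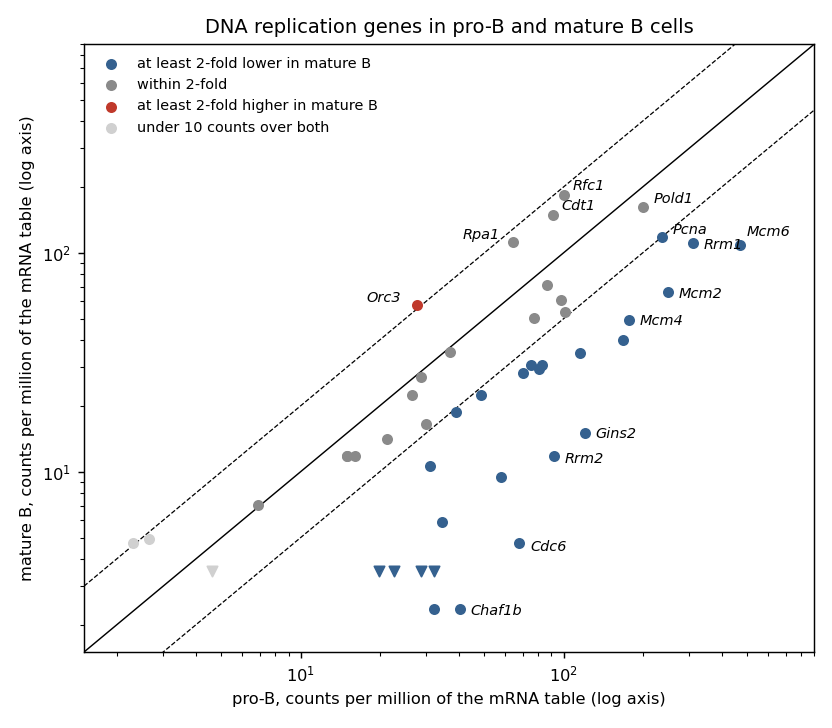
CPM of the mRNA table in pro-B cells (x axis) and mature B cells (y axis), both on log axes, with 1 point per gene, the line of equality and dashed lines at 2-fold. Triangles are genes at 0 in mature B cells drawn at 3 counts, Tk1 (0 in both) is left out, and most points lie on or below the lower dashed line, with Orc3 alone of the genes with 10 counts or more past the upper one.

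The licensing genes were 2.60-fold lower in mature B cells in sum (2.26 to 3.01), and 10 of the 15 were counted as lower. The 6 helicase subunits all were. Mcm6 had 468 CPM in pro-B cells and 108 in mature B cells, 4.32-fold lower (3.12 to 6.09). Mcm2 had 217, 11, 10 and 56 counts from pro-B to mature B cells and was 3.79-fold lower (2.48 to 5.97). Mcm4, with 154, 4, 4 and 42 counts, was 3.59-fold lower (2.19 to 6.12). Its FPKM, a value scaled for transcript length and library, was 10.36 in pro-B and 5.52 in mature B cells, within 2-fold. Mcm5, with 146, 23, 3 and 34, was 4.20-fold lower (2.45 to 7.60). The intervals of these 4 subunits overlapped, so their folds could not be told apart at this depth. Mcm3, with 100.09, 0, 4.93 and 29.67 counts, was 3.30-fold lower (1.82 to 6.35). Mcm7 had 17.31, 0, 4.36 and 0 counts and was at least 1.84-fold lower by the counting limit, the bound given for genes at 0. Its counts were too few to place its fold among those of the other subunits. Cdc6, the loader, had 59, 10, 0 and 4 counts and was 14.4-fold lower (3.66 to 125).

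The other licensing genes were not all lower. Cdt1, the partner of Cdc6 in loading, had 79, 24, 12 and 126 counts, most at the mature stage. Its level of 148 CPM in mature B cells was 1.63-fold that in pro-B cells (1.08 to 2.49), within 2-fold but above the counting error. Geminin (Gmnn), which inhibits Cdt1, had 34, 6, 0 and 16 counts and was 2.08-fold lower (0.851 to 5.57), an interval that includes no difference. Among the subunits of the origin recognition complex, Orc6 (28, 2, 4 and 2 counts) was 13.7-fold lower (2.08 to 579). Orc2 (30, 9, 10 and 5 counts) was 5.87-fold lower (1.53 to 38.9). Orc1, Orc4 and Orc5 lay within 2-fold, at ratios of 0.786, 0.533 and 0.940 in mature against pro-B cells. Orc3 was the 1 replication gene counted as higher, at 2.08-fold (1.004 to 4.55) from 24.05 and 48.95 counts. All counts of Orc3, in every library, were those of its noncoding transcripts. With noncoding transcripts taken off, Orc4 was at 67.6 CPM in pro-B and 22.1 in mature B cells, past the limit for lower genes. The lncRNA table lists the noncoding transcripts of 19 of the 47 genes, and the gene count contains them: it was not below their sum for between 99.9% and 100% of the symbols that have any.

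Of the genes that activate the helicase, Cdc45 had 28 counts in pro-B cells and 4, 1 and 0 in the later stages, at least 3.25-fold lower in mature B cells. Mcm10 had 25, 8, 2 and 0 counts, at least 2.85-fold lower. Cdc7, with 23, 4, 0 and 19 counts, lay within 2-fold at a ratio of 0.844 (0.318 to 2.18). The 6 genes of this role without Gins2 had 95, 22, 4 and 33 counts, and the sum was 2.82-fold lower in mature B cells (1.58 to 5.27). The GINS complex holds 1 copy each of 4 subunits, and 3 of them were barely detected: Gins1 had 4, 4, 0 and 0 counts, Gins3 2, 0, 1 and 4, and Gins4 13, 2, 0 and 10.

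Polymerase and primase genes were 1.61-fold lower in sum (1.296 to 2.01), and 4 of 8 were counted as lower. Pold1 lay within 2-fold, with 174, 31, 32 and 138 counts, or 200.5, 129, 143 and 162 CPM, and a ratio of 0.810 (0.582 to 1.12). On the total of both tables it was at 48.0, 8.39, 9.31 and 38.6 per 1000000. Pole, the catalytic subunit of polymerase epsilon, had 72, 13, 0 and 26 counts and was 2.71-fold lower (1.40 to 5.57). Pola1, that of polymerase alpha, had 65, 2, 2 and 26 counts and was 2.45-fold lower (1.25 to 5.07). The primase genes Prim1 (27, 4, 0 and 9 counts) and Prim2 (42.30, 2, 0 and 19) were 2.94-fold and 2.18-fold lower, with intervals that include no difference. The accessory subunits Pola2, Pold2 and Pole2 were within 2-fold, at 30, 10 and 12 counts in mature B cells. On the FPKM scale Pola2 went from 5.92 in pro-B to 2.34 in mature B cells and Pold2 from 3.43 to 1.15, both past 2-fold. Pole2 went from 1.99 to 1.38.

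The clamp, its loader and the Rpa trimer differed least, at 1.19-fold lower in sum (0.992 to 1.44). Pcna had 206, 33, 14 and 100 counts and was 2.02-fold lower (1.43 to 2.89), just past the limit. Rfc1, the large subunit of the clamp loader, had 87, 14, 10 and 156 counts and stood at 1.83-fold its pro-B level (1.25 to 2.72). Its FPKM was 6.90 in pro-B and 6.79 in mature B cells, so this rise was in the counts alone. The small subunits went the other way or were low. Rfc3 (50, 13, 10 and 8 counts) was 6.12-fold lower (2.11 to 24.2), and Rfc2 (19.59, 10.14, 0 and 0) at least 2.14-fold. Rfc4 (26, 12, 20 and 14) had a ratio of 0.550 (0.186 to 1.48), and Rfc5 had 2.30, 0, 0 and 4.19 counts. In the Rpa trimer, Rpa1 had 56, 2, 14 and 95 counts and a ratio of 1.73 (1.06 to 2.87), and with noncoding transcripts taken off it was at 44.0 and 105 CPM at the ends, past the limit for higher genes. Rpa2 had 67, 28, 18 and 43 counts and a ratio of 0.656 (0.363 to 1.16). Rpa3 had 6, 10, 2 and 6 counts, a ratio of 1.02 with an interval from 0.137 to 7.63.

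Nucleotide supply, Okazaki fragment joining and chromatin assembly had 7 genes to compare, Tk1 being at 0. Rrm1 was 2.81-fold lower in mature B cells (2.003 to 4.01), and Rrm2, the small subunit whose level limits ribonucleotide reductase in S phase, was 7.83-fold lower (3.09 to 25.4) from 80, 4, 2 and 10 counts. Tyms, the thymidylate synthase, was within 2-fold at a ratio of 0.622 (0.367 to 1.04). Fen1, the flap nuclease (61, 14, 4 and 24 counts), and Lig1, the ligase that seals the fragments (70, 7, 2 and 25 counts), were 2.49-fold (1.24 to 5.33) and 2.74-fold lower (1.40 to 5.72). The CAF-1 complex, which places histones on new DNA, was split. Chaf1b (35, 3, 0 and 2 counts) was 17.1-fold lower (2.69 to 715), the largest ratio among the genes above 0 in both libraries, whereas Chaf1a had a ratio of 0.819 (0.490 to 1.36).

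**Figure D4:**
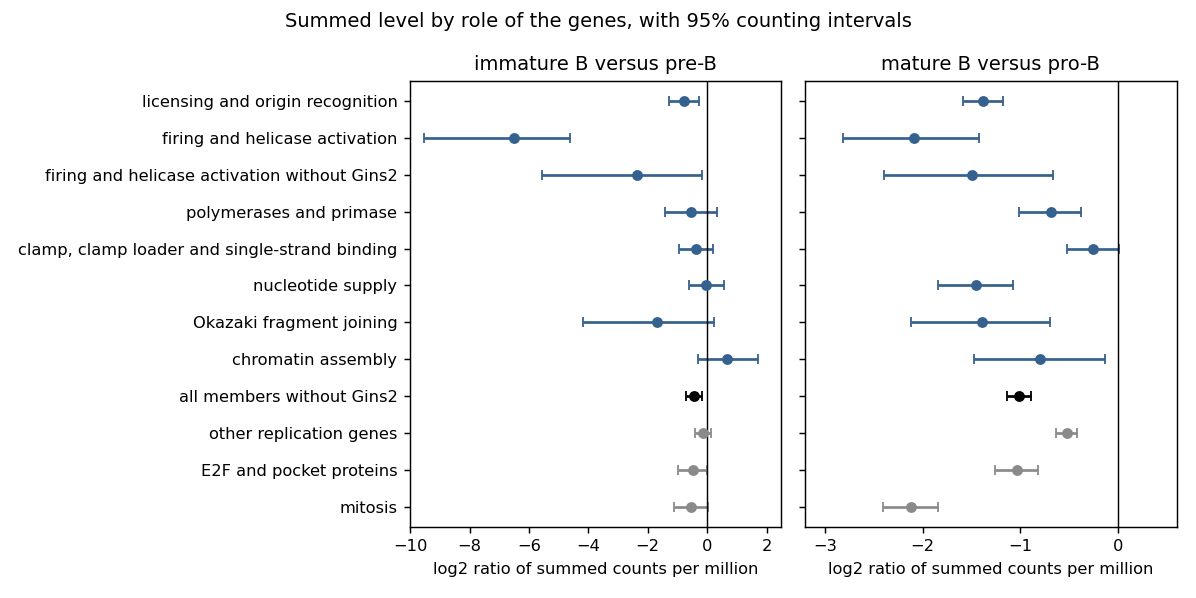
Log2 ratio of the summed CPM by role (blue), for all genes without Gins2 (black) and for 3 other gene lists (grey), with 95% counting intervals, between immature and pre-B cells (left) and between mature and pro-B cells (right). On the right all roles lie left of 0 and only the interval of the clamp, loader and Rpa genes reaches it.

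Between pro-B and pre-B cells the replication genes were close to what all genes showed. Of 43 genes tested, 13 were at least 2-fold lower in pre-B cells, against 29.6% of all 9707 symbols, and 4 were at least 2-fold higher, against 17.8%. The median log2 ratio was -0.68, and -0.35 over all symbols. The sum without Gins2 was 1.56-fold lower (1.37 to 1.78). Scaled to both tables, where the median of all symbols was -2.23, 38 genes were lower and 1 was higher, against 80.7% and 2.60% of all symbols, and the median of the replication genes was -2.56. On the FPKM scale with a pseudocount of 0.1 the medians were -2.75 for the replication genes and -2.11 for all symbols. The lower genes on the mRNA total were Mcm2, Mcm3, Mcm4, Mcm6, Orc6, Pola1, Prim2, Pole2, Rpa1, Rrm1, Rrm2, Lig1 and Chaf1b. Of these, Orc6, Prim2, Pole2, Lig1 and Chaf1b had intervals that include no difference. Mcm4 was 10.7-fold lower on the mRNA total (2.85 to 89.6), and Mcm3, at 0 in pre-B cells, at least 3.62-fold. Rrm1 was 2.67-fold lower (1.54 to 5.01). Mcm6 was 2.12-fold lower (1.41 to 3.31), to 221 CPM. The genes higher in pre-B cells were Orc3 at 2.78-fold (1.05 to 7.15), Tyms at 3.22-fold (2.03 to 5.11), Rpa3 at 6.02-fold (1.17 to 38.8) from 6 and 10 counts, and Gins2. Scaled to both tables, Gins2 alone was at least 2-fold higher.

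Between pre-B and immature B cells, whose libraries were alike in depth and mRNA share, few genes had enough counts. Of 25 tested, 12 were lower in immature B cells, where 18.9% of all 7002 symbols were lower, and 1 was higher, where 18.5% were. The median log2 ratio was -0.90, and -0.01 over all symbols. Without Gins2 the sum was 1.34-fold lower (1.12 to 1.62). Mcm6 went from 53 to 16 counts, 3.08-fold lower (1.36 to 7.86), and Mcm5 from 23 to 3, 7.13-fold lower (1.34 to 109). Pole went from 13 counts to 0, at least 1.22-fold lower. Besides Gins2, the other lower genes were Mcm10, Cdc6, Orc3, Pcna, Rfc2, Rpa3, Rrm1 and Fen1, whose intervals all include no difference. Rpa1 was the higher gene, from 2 to 14 counts, at a ratio of 7.52 (0.967 to 339). With at least 30 counts over both libraries required, 11 genes were left, of which 4 were lower, against 14.0% of all symbols at that depth.

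Between immature and mature B cells the direction depended on the gene and on the total. Of 34 genes tested, 10 were higher in mature B cells, against 24.8% of all 8988 symbols, and 7 were lower, against 21.6%. The median log2 ratio was 0.63, and 0.16 over all symbols, while the sum without Gins2 was at a ratio of 1.04 (0.887 to 1.22). Scaled to both tables, 27 were higher and 1 lower, against 75.9% and 3.69% of all symbols. Higher on the mRNA total were Rfc1 at 4.10-fold (1.69 to 13.0) and Cdt1 at 2.76-fold (1.20 to 7.81). So were Rrm1, Mcm4, Mcm5, Orc3, Lig1, Pola1, Pole and Orc5, whose intervals all include no difference. Lower on the mRNA total were Tyms, Orc1, Orc2, Orc4, Rfc3, Rfc4 and Chaf1a, of which Orc1 and Orc4 had intervals that include no difference. Tyms was 6.32-fold lower (3.80 to 10.7), Rfc4 5.43-fold (1.87 to 16.8) and Orc2 7.60-fold (1.37 to 59.5). On the total of both tables Orc2 was the 1 gene that was lower, at 2.91 and 1.40 counts per 1000000, and Rfc4, at 5.82 and 3.91, was within 2-fold. On that total Tyms had 23.5, 20.6, 25.1 and 14.5 counts per 1000000, all within 2-fold of each other.

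Gins2, a subunit of the GINS complex, stood apart from the rest. Its level was 120 CPM (89.9 to 158) at the pro-B stage, 1518 (1306 to 1755) at the pre-B stage, 0 (up to 33.0) at the immature stage and 15.1 (5.76 to 32.1) at the mature stage. The pre-B level was 12.6-fold the pro-B level (9.23 to 17.5) and made up 39.4% of all replication gene counts of that library. In immature B cells it was at least 45.5-fold lower than in pre-B cells by the counting limit. Gins2, scaled to both tables, was at 28.8, 98.7, 0 and 3.58 per 1000000, a smaller step from pro-B to pre-B cells than on the mRNA total. No other GINS subunit had over 4 counts in pre-B cells. The count was matched by the FPKM value, which scales for transcript length as well: 4.93, 16.28, 0 and 0.62, or 21.2 counts per FPKM in pro-B cells and 22.4 in pre-B cells. No noncoding transcript of Gins2 was listed with counts. In the RefSeq annotation Gins2 overlaps Gse1, which had 712, 110, 46 and 215 counts, or 820.4, 458, 206 and 253 CPM, and was thus lower at the pre-B than at the pro-B stage. The counts of Gins2 were not whole numbers, and whether it shares reads with other sequence was not tested, which limits the folds given.

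**Figure D5:**
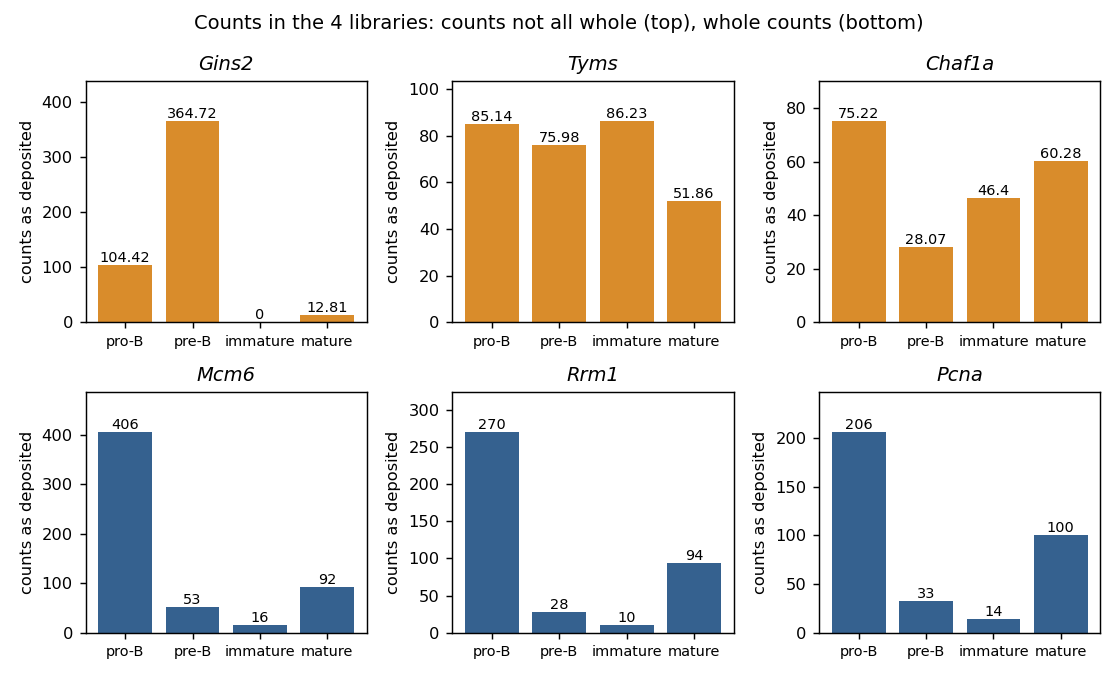
Counts as deposited in the 4 libraries for Gins2, Tyms and Chaf1a, whose counts are not all whole (orange, top), and for Mcm6, Rrm1 and Pcna, whose counts are whole (blue, bottom). The blue genes are lowest in the pre-B and immature B libraries, as their mRNA totals are, whereas Gins2 is highest in pre-B cells and Tyms is nearly level over the first 3 libraries.

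A count that is not whole was found in at least 1 library for 11 genes: Mcm3, Mcm7, Gins2, Orc3, Orc4, Rfc2, Rfc5, Prim2, Pole2, Tyms and Chaf1a. Their sum was 664, 2189, 772 and 335 CPM. The 36 genes with whole counts summed to 3092, 1661, 962 and 1482 CPM. These 36 were 1.86-fold lower at the pre-B than at the pro-B stage (1.60 to 2.17), 1.73-fold lower in immature than in pre-B cells (1.36 to 2.204), and at a ratio of 1.54 (1.25 to 1.91) between mature and immature B cells. The 36, scaled to both tables, summed to 739.7, 108, 62.5 and 352 per 1000000, and the steps that cross the change in mRNA share were larger. From pro-B to mature B cells the 36 were 2.09-fold lower (1.90 to 2.30) and the 11 were 1.98-fold lower (1.62 to 2.44). The 11 include Gins2, itself 7.98-fold lower, and their sum without it was not compared. For all genes without Gins2 the log2 ratio of the sum was -1.01, and it was -1.06 with whole counts only. Chaf1a had 75.22, 28.07, 46.40 and 60.28 counts, or 86.7, 117, 208 and 71.0 CPM. Scaled to both tables it was at 20.7, 7.59, 13.5 and 16.8 per 1000000, highest in pro-B cells. Orc4 had 87.60, 24.38, 24.27 and 45.67 counts, of which 28.92, 0.72, 2.79 and 26.91 were those of noncoding transcripts. Over all 47 genes noncoding transcripts held 3.81%, 2.84%, 4.18% and 7.59% of the counts. Pcna had 32.79, 0, 2.37 and 20.23 such counts and Rpa1 17.85, 0, 0 and 5.56. In pre-B cells all 4 counts of Gins1 and all 3 of Orc1 were noncoding.

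Genes can be compared with each other only on the FPKM scale. In pro-B cells Pcna had the highest FPKM of the set, 32.74, followed by Mcm6 with 25.22. The other helicase subunits had an FPKM of 11.84 for Mcm2, 10.36 for Mcm4, 10.31 for Mcm5, 6.07 for Mcm3 and 4.22 for Mcm7. For the large and small subunit of ribonucleotide reductase the FPKM was 12.43 and 6.71. The subunits of the clamp loader lay between 0.55 for Rfc5 and 6.98 for Rfc3, with Rfc1 at 6.90. In mature B cells Pcna was again first with 17.33, followed by Cdt1 with 14.20, while Mcm6 was at 5.87. At the pre-B stage Gins2 was first with 16.28, followed by Tyms with 4.18 and Pcna with 3.78, and at the immature stage Tyms was first with 5.18.

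The E2F words were not confined to genes that were lower in mature than in pro-B cells. Of the genes with a promoter window, 8 of 19 lower genes, 4 of 16 within 2-fold, the 1 higher gene (Orc3) and 1 of 3 with too few counts had a word. The stretches of Cdc6, Mcm5, Mcm6 and Pola1 printed above belong to genes lower in mature B cells by CPM. Those of Orc1 and Orc3 belong to genes not counted as lower by that rule. The Orc1 ratio of 0.786 had an interval from 0.193 to 2.97, and its FPKM went from 1.29 in pro-B to 0.63 in mature B cells, just past 2-fold. All counts of Orc3 were those of noncoding transcripts, so the level of its coding transcripts is not shown.

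Other genes of the cell cycle gave a frame for these values. Of 46 further replication genes, 41 had enough counts between pro-B and mature B cells, 18 were lower and 3 were higher, against 23.6% and 13.3% of all symbols, and their sum was 1.44-fold lower (1.34 to 1.55). Of 15 genes for E2F factors, their partners and pocket proteins, 13 had enough counts, 8 were lower and 0 higher, against the same shares, and the sum was 2.05-fold lower (1.76 to 2.39). Of 20 genes of mitosis, 19 had enough counts, 13 were lower and 0 higher, again against 23.6% and 13.3%, and the sum was 4.34-fold lower (3.59 to 5.28). The counting interval of the mitosis genes did not overlap that of the replication genes without Gins2, 1.85 to 2.203. Mki67, a mark of cycling cells, had 633.99, 76, 38 and 115 counts and was 5.39-fold lower in mature than in pro-B cells. E2f2 had 242, 79, 35 and 65 counts and was 3.64-fold lower, and Rb1, the pocket protein, had 170.97, 48, 28.81 and 156.16 counts, 1.07-fold lower. Samhd1, which degrades nucleotides outside S phase, had 133.30, 28.58, 80.41 and 528.01 counts and was 4.05-fold higher. The topoisomerase genes Top2b and Top1 had 524, 44, 40 and 291 and 256, 18, 9 and 152 counts, and both lay within 2-fold between the ends. Between pre-B and pro-B cells 17 of 39 further replication genes, 7 of 13 of the E2F list and 10 of 19 mitosis genes were lower, against 29.6% of all symbols.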

How the data were processed

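The authors' pipeline ran fastp 0.18.0 for trimming, Bowtie2 2.2.8 for taking out rRNA reads, HISAT2 2.1.0 for mapping stranded libraries and StringTie 1.3.4 for abundance. The submitters' processing notes also name mm9 and Bowtie 0.12.2, without their role. Estimated counts in the mRNA and lncRNA tables are as deposited, not normalized and not all whole. The authors deposited FPKM values beside them, scaled for transcript length and library. The circRNA table holds deposited counts of back-spliced reads and RPM values that the authors derived from them. The small RNA tables were not used.

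The 22298 rows of the mRNA table were summed by symbol (22272) and scaled to CPM. Whole counts were mostly even (63.3% to 73.9% of symbols), and counts of 2 outnumbered counts of 1 by 1263 to 154 in pro-B cells, so the 95% intervals (exact Poisson for sums, Clopper-Pearson for ratios) were computed on counts divided by 2. No molecular identifiers are described, and intervals cover counting error only. The lncRNA rows whose symbol is absent from the mRNA table were added for the total of both tables. The study's methods compared single libraries with edgeR; here no test was run, since each stage had 1 library. Python 3.11.15, pandas 2.3.3 and scipy 1.17.1 were used, and R 4.3.3 for alternative scaling by DESeq2 1.42.0 and edgeR 4.0.16. The fold rule was tested on simulated data with changes larger than 2-fold, in symbols with expected counts well above the minimum used here. That test does not cover 2-fold calls at low counts. The members, lists and rules were chosen with earlier results of these data known. All 47 genes may be named. Of the further lists, the 3 genes of each with the most counts are named. In RefSeq, 14 of the 47 overlap another coding gene. Windows for Mcm4, Gins1, Gins2, Gins4, Gmnn, Rfc2, Prim2 and Pole were not analysed here.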

Additional observations from a re-analysis of the deposited data

Results flagged for a closer look

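The circRNA table, which no comparison above uses, lists back-spliced reads of 3 replication genes. A circRNA antisense to Mcm6 (chr1:128355205-128358650, plus strand) had 6 reads in immature B cells and 0 in the other libraries. A circRNA antisense to Mcm5 (chr8:75115891-75121638, minus strand) had 4 reads in immature B cells and 0 elsewhere. A circRNA of exon and intron sequence of Rfc1 (chr5:65273289-65277000, minus strand) had 8 reads in pro-B cells and 0 elsewhere. Each value is above 3 reads, the number that a count of 0 was set to in the comparisons above, and each rests on 1 library. Values were flagged by that same number, so passing it adds no support. If back-spliced reads were counted in pairs, 4 and 6 reads are not shown to exceed the counting limit of a 0. The paper describes most expressed circRNAs as stage-specific, so reads in 1 library alone are not particular to these 3. The coordinates are those of the table, whose build the labels give as mm9; 97.3% of 447 circRNAs of exons lay inside the span of their gene on GRCm38.p6.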

How the results depend on the processing

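No paired analysis was possible because each stage had 1 library, and for the same reason no library could be left out. Of 128 recomputed values, 91 stayed within the limits set, 36 moved and 1 reversed. The sum between mature and pro-B cells (log2 ratio -1.01 without Gins2) was -0.86 with TMM and -0.83 with DESeq2 size factors, and the 25 lower genes ranged from 19 to 26 over the alternatives. TMM moved the median of all symbols there from -0.18 to -0.03. The 1 higher gene there became 0 on FPKM with a pseudocount of 0.1 or 1, and 2 with TMM, DESeq2 size factors or no minimum of counts. The comparisons that cross the change in mRNA share depended on the total. Between pre-B and pro-B cells the sum (-0.64) was -2.46 and -2.44 on FPKM (pseudocount 0.1 and 1), -2.52 on the total of both tables, -0.90 with whole counts only and 0.035, reversed, with Gins2. The 4 higher genes became 1 on each of the first 3 scales, and the 13 lower ones 37, 33 and 38. Between mature and immature B cells the sum (0.06) was 2.06, 2.03 and 1.92 on the same 3 scales and 0.62 with whole counts only. There the 10 higher genes became 28, 22 and 27, and the 7 lower ones 0, 0 and 1. Of all symbols, 72.3% were higher and 3.42% lower on FPKM with a pseudocount of 0.1, and 75.9% and 3.69% on the total of both tables. With at least 30 counts, 6 replication genes were higher and 4 lower, against 31.2% and 15.2% of all symbols. Between immature and pre-B cells the sum (-0.43) was -1.15 with Gins2 and -0.79 with whole counts only. The 1 higher gene became 0 on FPKM with a pseudocount of 1, 0 with at least 30 counts and 3 with no minimum, and the 12 lower ones became 5 on FPKM with a pseudocount of 1 and 4 with at least 30 counts. The total of both tables, 0 set to 6 counts, noncoding transcripts taken off and whole counts only were chosen after seeing the data. Single genes are limited by counting error in the pre-B and immature B libraries, and by the choice of total where the mRNA share changes.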

Other observations

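Of the pathway annotations in the mRNA table, DNA replication held 37 symbols, of which 25 are among the 47 genes described. The other 12 gave 8 genes with enough counts at both ends of the series, of which 5 lay within 2-fold. At least 2-fold higher in mature B cells were 2 (Rnaseh1 and Pold4), against 13.3% of all symbols, and 1 was lower (Dna2), against 23.6%. These 3 were named after their values were seen. Mismatch repair held 12 and nucleotide excision repair 14 of the 47 genes, so their pathways share many members with replication.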
